A study of Mus musculus with 8 samples.

Results

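A set of 9 genes of cholesterol efflux and of the liver X receptors were followed over the arrays: Abca1, Abcg1, Nr1h2, Nr1h3, Mylip, Apoe, Npc1, Npc2 and Scarb1. They were picked by symbol, and for each the probe set with 1 gene symbol and the highest mean over the 8 arrays was taken, so levels were used in choosing the probe set. Of the 9 genes, 8 had such a probe set, 1 each, out of 19938 genes in all. Nr1h2 was not matched to a probe set and was not analysed here. The cells were mouse embryonic fibroblasts on an FVB/N background. Every group, the vector group included, was a Daxx knockout. DaxxA (2 arrays) and DaxxB (2 arrays) had Daxx put back, and the vector group (4 arrays) had received vector. The labels give neither the meaning of A and B nor the promoter of the construct, and do not say whether the lines were clones or the arrays separate cultures, so p-values measure the spread between these arrays, which may be technical. The comparison asks which transcripts differ once Daxx, a histone chaperone and transcriptional regulator, is put back. Signals are log2 values after RMA, which corrects background, sets the probe values of all arrays to 1 distribution and then merges the probes of a probe set. The merged values still differed in range between arrays here. A gene was called when its adjusted p was below 0.05 in limma with Benjamini-Hochberg adjustment over all 19938 genes.

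Cells cannot break down the sterol ring, so surplus cholesterol is stored as ester or sent out. Abca1 and Abcg1 are membrane transporters that send cholesterol out, Abca1 to apolipoprotein A-I and Abcg1 to mature high density lipoprotein. Scarb1 exchanges cholesterol with high density lipoprotein. The liver X receptors, Nr1h3 (LXR alpha) and Nr1h2 (LXR beta), pair with retinoid X receptors, bind oxysterols and switch on Abca1, Abcg1, Apoe and Mylip. Npc1 and Npc2 pass cholesterol out of the lysosome.

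The proximal promoters of Abca1 and Npc2 are shown because these were the members called in at least 1 comparison with all 8 arrays. Each is the 250 bases before the RefSeq start site on the GRCm38.p6 assembly, 5' to 3' on the strand of the gene, that is chr4:53159896-53160145 minus strand for Abca1 and chr12:84773113-84773362 minus strand for Npc2. Capitals mark every match to 5 motifs.
Abca1: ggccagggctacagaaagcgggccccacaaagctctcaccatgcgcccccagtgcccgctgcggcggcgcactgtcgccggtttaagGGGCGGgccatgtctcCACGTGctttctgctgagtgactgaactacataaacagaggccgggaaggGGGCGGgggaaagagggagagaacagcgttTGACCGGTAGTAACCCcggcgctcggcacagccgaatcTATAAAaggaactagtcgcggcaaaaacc
Npc2: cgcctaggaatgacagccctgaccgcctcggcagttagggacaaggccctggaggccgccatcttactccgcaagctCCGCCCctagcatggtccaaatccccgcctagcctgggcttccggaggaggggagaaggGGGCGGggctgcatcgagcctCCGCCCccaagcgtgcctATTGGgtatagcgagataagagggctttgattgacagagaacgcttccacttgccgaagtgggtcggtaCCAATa
The Abca1 window held a match to DR4, the direct repeat read by liver X receptors, which was searched as 2 copies of AGGTCA set 4 bases apart with at most 3 mismatches over 12 letters. It lay on the opposite strand, from 67 to 52 bases before the start, and had 3 mismatches. The same window held an E-box (CACGTG, 147 to 142 bases before the start), 2 GC boxes (GGGCGG) and a TATA match (TATAAA, 29 to 24 bases before the start). The Npc2 window held 3 GC boxes and 2 CCAAT boxes and no match to DR4, the E-box or TATAAA. Motifs were searched on both strands, TATAAA on that of the gene only, and no 2 matches overlapped. Over all 32851 promoter windows of this length, 18.5% held such a DR4 match, 6.02% the E-box, 32.7% a GC box, 33.8% CCAAT and 7.59% TATAAA. The 6 listed genes with a promoter in the table (Abca1, Nr1h2, Nr1h3, Mylip, Apoe and Npc2) had 9 windows. The DR4 match was in 1 of these 9 windows, that of Abca1, against 18.5% of all windows. Bases outside the windows were not searched, so a gene without a match here may have one elsewhere. A match is a description of the letters and not a bound site.

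One array stood apart. Vector replicate 2 had an interquartile range of 2.79, against 3.31 to 3.39 in the other 7 arrays, and a mean correlation of 0.969 with the others, whereas those 7 correlated with each other at 0.991 to 0.998. The median of 1027 olfactory receptor genes, taken as a guide to background, was 5.21 on it and 4.65 to 4.70 on the others. Results that depend on it are given with and without it. The Daxx probe set itself averaged 7.35 ± 0.0965 in the Daxx arrays and 7.15 ± 0.216 in the vector arrays (SD, n = 4 each), with p = 0.143 by exact permutation of the arrays (two-sided, smallest possible p 0.0286). Without vector replicate 2 the Daxx probe set averaged 7.26 ± 0.0879 in the vector arrays (SD, n = 3). Its difference was then 0.10 rather than 0.20 (exact permutation p = 0.229). The sources used here do not say whether its probes lie in the deleted stretch or in the construct, so every direction below rests on the labels.

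Abca1, the transporter that starts lipid loading of apolipoprotein A-I, was the one member that passed the test in Daxx against vector with all 8 arrays. Its signal was 7.53 and 7.50 in the DaxxA arrays, 7.39 and 7.35 in the DaxxB arrays, and 8.46, 8.42, 8.49 and 8.50 in the vector arrays. All 4 Daxx arrays lay below all 4 vector arrays, with a gap of 0.89 between the closest pair, while the arrays within a group lay close together. Abca1 fell by 1.03 on the log2 scale in Daxx against vector arrays (SE 0.0585, 95% interval -1.16 to -0.89, limma adjusted p = 3.33e-05), which is 2.04-fold, or 49.1% of the vector signal. With vector replicate 2 left out, Abca1 fell by 1.04 (adjusted p = 5.99e-07). Among the 544 genes called lower, 41 had a lower value than Abca1, and 0.226% of all genes had a larger absolute difference. Abca1 was 1 of 48 genes called lower by at least 2-fold (0.241% of all genes), while 6 were called higher by that much (0.0301%, together 0.271%).

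**Figure D1:**
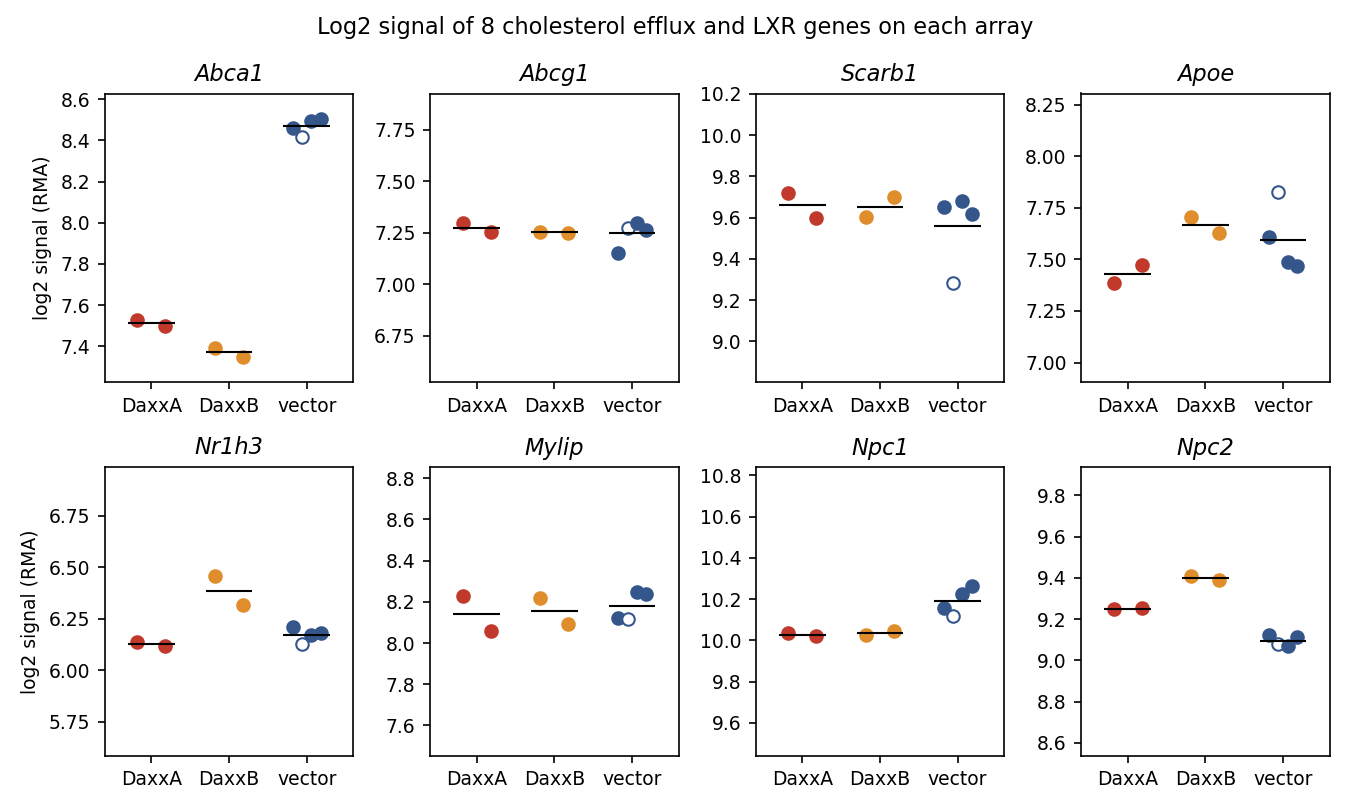
Log2 signal (vertical axis, each panel spanning the same range) of the 8 measured genes on each array of DaxxA (2), DaxxB (2) and vector (4). Points are arrays, bars are group means and the hollow point is vector replicate 2; Abca1 is lower on all 4 Daxx arrays (7.35 to 7.53) than on the vector arrays (8.42 to 8.50).

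The remaining efflux genes did not pass the test. Abcg1, which hands cholesterol to mature high density lipoprotein, read 7.30 and 7.25 in DaxxA, 7.25 and 7.25 in DaxxB, and 7.15, 7.27, 7.30 and 7.26 in the vector arrays. The groups overlapped, and Abcg1 differed by 0.016 (95% interval -0.10 to 0.13, limma adjusted p = 0.894). Scarb1, the high density lipoprotein receptor SR-BI, read 9.72 and 9.60 in DaxxA, 9.60 and 9.70 in DaxxB, and 9.65, 9.28, 9.68 and 9.62 in the vector arrays. Its low value was vector replicate 2. The Scarb1 difference was 0.10 (interval -0.11 to 0.31) with all 8 arrays and 0.0080 (interval -0.10 to 0.11) without that array. Apoe, an apolipoprotein that accepts cholesterol and is itself an LXR target, read 7.38 and 7.47 in DaxxA, 7.71 and 7.63 in DaxxB, and 7.61, 7.83, 7.49 and 7.47 in the vector arrays. DaxxB was the higher of the Daxx groups and the vector arrays spread across both. Apoe differed by -0.05 (interval -0.28 to 0.18, adjusted p = 0.834), and its sign turned without vector replicate 2 (0.03, adjusted p = 0.873).

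Of the receptor and its ubiquitin ligase target, neither passed in Daxx against vector. Nr1h3 read 6.14 and 6.12 in DaxxA, 6.45 and 6.31 in DaxxB, and 6.21, 6.13, 6.17 and 6.18 in the vector arrays. DaxxB lay above every other array, and DaxxA overlapped the vector range at its lower end. Its overall difference was 0.08 (interval -0.10 to 0.27, limma adjusted p = 0.69). For DaxxB alone it was 0.21 (interval 0.06 to 0.36, adjusted p = 0.167), which passed only without vector replicate 2 or with array weights (adjusted p = 0.0251 and 0.0155). For DaxxA it was -0.05 (adjusted p = 0.781), and its sign turned when arrays were centred or quantile normalized again. Its mean lay above that of 95.7% of the 1027 olfactory receptor genes, against 99.4% or more for each other member. Mylip (IDOL), which marks the LDL receptor for degradation, read 8.23 and 8.06 in DaxxA, 8.22 and 8.09 in DaxxB, and 8.12, 8.12, 8.25 and 8.24 in the vector arrays. The groups overlapped throughout, and Mylip differed by -0.03 (interval -0.18 to 0.11, adjusted p = 0.824).

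The lysosomal pair had differences of opposite sign, and neither passed in Daxx against vector with all 8 arrays. Npc2, the soluble lysosomal protein that picks up free cholesterol, read 9.25 and 9.25 in DaxxA, 9.41 and 9.39 in DaxxB, and 9.12, 9.08, 9.07 and 9.11 in the vector arrays. All Daxx arrays lay above all vector arrays, and DaxxB lay highest. The difference of 0.23 (SE 0.0570, interval 0.10 to 0.36, 1.17-fold) had a limma adjusted p of 0.0624. For DaxxB alone Npc2 rose by 0.30 (SE 0.0542, 1.23-fold, adjusted p = 0.0335), but that call was lost when any 1 of 7 arrays was left out, vector replicate 2 being the exception (adjusted p up to 0.329, and 0.00154 without vector replicate 2). For DaxxA the difference was 0.15 (adjusted p = 0.304).

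Npc1, the membrane protein that receives cholesterol from Npc2, read 10.03 and 10.02 in DaxxA, 10.03 and 10.04 in DaxxB, and 10.16, 10.12, 10.22 and 10.26 in the vector arrays. The 4 Daxx arrays lay within 10.02 to 10.04 and below every vector array, although the gap was only 0.08. The difference of -0.16 (SE 0.0511, interval -0.28 to -0.04) had a limma adjusted p of 0.141. On the 7 arrays without vector replicate 2, Npc1 fell by 0.18 (adjusted p = 0.0163) and Npc2 rose by 0.22 (adjusted p = 0.0193), each by less than 1.2-fold.

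Counted together, 1 of the 8 members was called in Daxx against vector, 0 higher and 1 lower, against 4.52% of all genes (902 of 19938, or 1.80% higher and 2.73% lower). The median difference was -0.0082 over the members and -0.03 over all genes. In 3 of the 8 (Abca1, Npc1 and Npc2) the conditions did not overlap, as in 14.8% of all genes (Daxx above in 8.02%, below in 6.79%). On the 7 arrays 3 members were called, 1 higher and 2 lower, against 12.8% of all genes (5.26% higher, 7.57% lower). DaxxA against vector called 1 member, Abca1 (all genes 1.97%, with 0.522% higher and 1.45% lower), which fell by 0.95 (SE 0.0578, adjusted p = 0.000477). DaxxB against vector called 2 members, Abca1 and Npc2 (all genes 2.69%, with 0.767% higher and 1.92% lower), and Abca1 fell by 1.10 (SE 0.0578, adjusted p = 0.000323). Both comparisons share the vector arrays. On the 7 arrays DaxxA had 2 of 8 members called, Abca1 and Npc1, both lower, against 11.3% of all genes (4.46% higher, 6.80% lower). DaxxB had 4 of 8 called there, Npc2 and Nr1h3 higher and Abca1 and Npc1 lower, against 20.5% of all genes (10.9% higher, 9.53% lower).

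**Figure D2:**
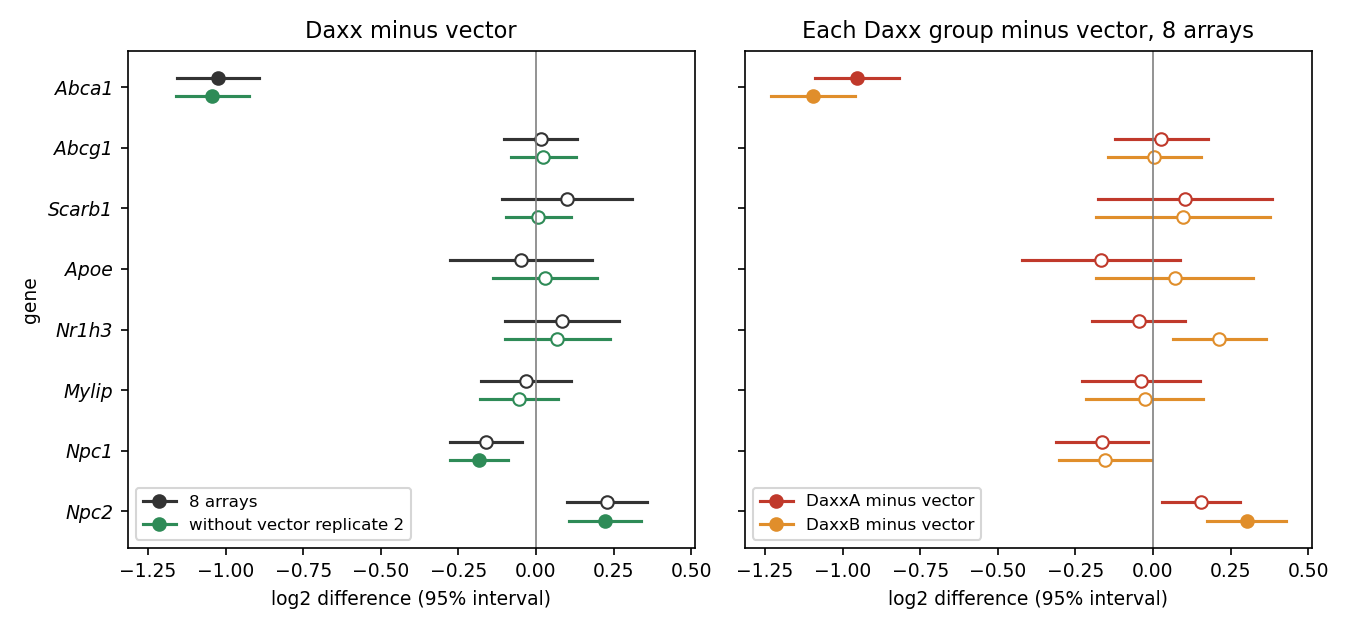
Log2 differences (horizontal axis) of the 8 genes with 95% intervals from limma: left, Daxx minus vector with all 8 arrays and without vector replicate 2; right, DaxxA minus vector and DaxxB minus vector. Filled points have an adjusted p below 0.05; Abca1 stands near -1 in every comparison while the other differences lie between -0.18 and 0.30.

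**Figure D3:**
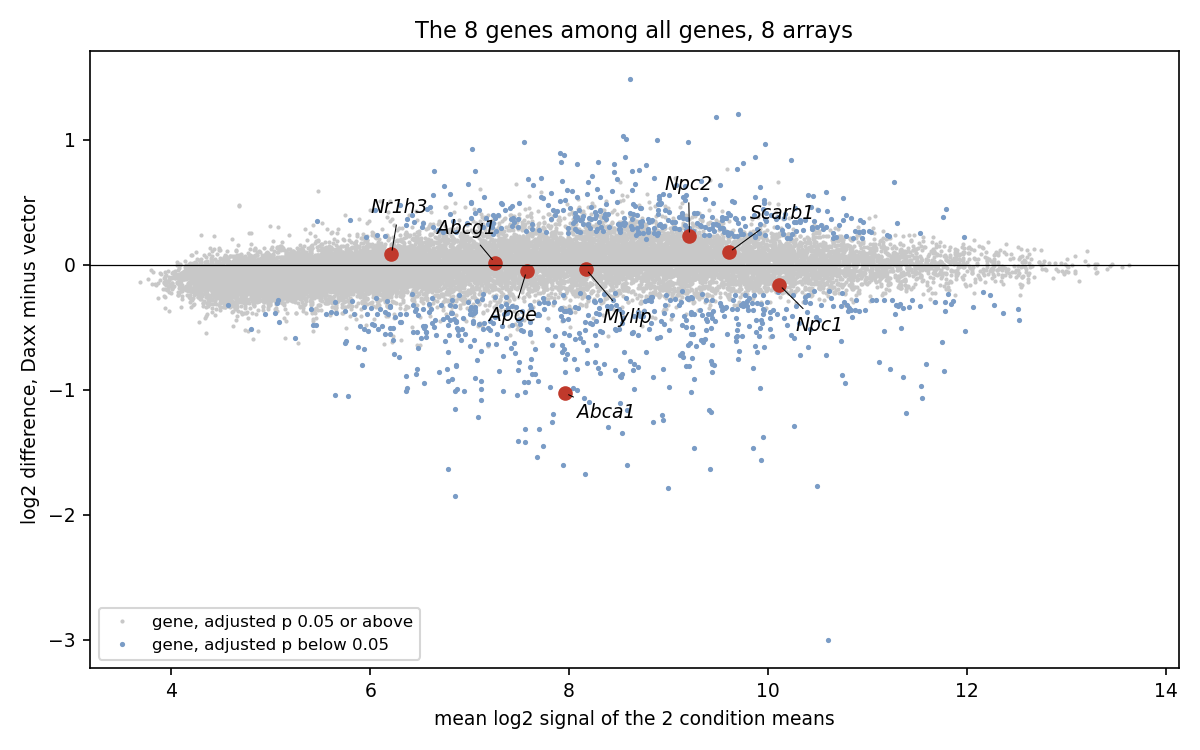
Log2 difference of Daxx minus vector (vertical axis) against the mean log2 signal of the 2 conditions (horizontal axis) for 19938 genes, with the 902 called genes in blue and the 8 members in red. Abca1 lies at -1.03 among called genes, and the other 7 members lie inside the grey cloud.

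Between the Daxx groups, 0 of 8 members and 0 of 19938 genes (0%) were called by limma with all 8 arrays (2 members and 846 genes at an unadjusted p under 0.05). Abca1 was 0.14 higher in DaxxA than in DaxxB (interval -0.01 to 0.30). Nr1h3 was 0.26 lower in DaxxA than in DaxxB (interval -0.43 to -0.09, adjusted p = 1), Apoe 0.24 lower and Npc2 0.15 lower. The arrays of the DaxxA and DaxxB groups did not overlap for these 4 of the 8 members (DaxxA above for 1 and below for 3), against 53.8% of all genes (17.9% above, 35.9% below), so that share is near the background. Without vector replicate 2, which enters here only through the estimate of spread, 428 genes were called (2.15%, with 0.787% higher and 1.36% lower) and 0 members, with Nr1h3 at an adjusted p of 0.0504. In order of level, Abca1 ran DaxxB, DaxxA, vector and Npc2 ran vector, DaxxA, DaxxB, and in both orders the neighbours that did not differ beyond the test were DaxxA and DaxxB, plus vector and DaxxA for Npc2.

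The genes whose signal over the 8 arrays was most like that of Abca1 were Cd34, a sialomucin of stromal progenitors, Cp, the copper ferroxidase ceruloplasmin, Ebf3, a helix-loop-helix transcription factor, Lypd6, a membrane-anchored Wnt modulator, and Eya1, a transcriptional coactivator and phosphatase. Pearson's r ran from 0.998 to 0.999 among 17065 genes compared, and from 0.997 to 0.999 on 7 arrays. The arrays fall into 2 sets by condition, so r here is set largely by the difference between those sets, and no p is given. Cd34 averaged 9.61 in Daxx arrays and 11.38 in vector arrays (a difference of -1.77), and Ebf3 averaged 7.24 in Daxx and 8.43 in vector arrays (a difference of -1.19). Lypd6 averaged 8.83 in Daxx and 9.99 in vector arrays, Cp 7.66 in Daxx and 8.50 in vector arrays, and Eya1 9.43 in Daxx and 10.26 in vector arrays.

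Other cholesterol genes were then counted by role. Among 22 measured of 26 listed partners and targets of the liver X receptors, such as the retinoid X receptors, Srebf1, Lpcat3 and Scd1, 0 were called with all 8 arrays (median 0.01, against -0.03 over all genes). Of these 22 genes, 17 lay above the 95th percentile of the olfactory receptor genes. For the dimmer ones the lack of a call says little. On the 7 arrays without vector replicate 2, 5 of the 22 were called, against 12.8% of all genes, 2 higher and 3 lower (median 0.03, against 0.02 over all genes). They are named after their values were seen, with the 8-array difference beside each. Pltp, the phospholipid transfer protein, fell by 0.23 (adjusted p = 0.0111; 8 arrays -0.20). Abcg4, a transporter related to Abcg1, fell by 0.21 (adjusted p = 0.0255; 8 arrays -0.32). Abca2, a lysosomal ABC transporter, fell by 0.16 (adjusted p = 0.0359), against a difference of -0.06 with 8 arrays (adjusted p = 0.777). The coactivator gene Ncoa1 rose by 0.17 (adjusted p = 0.0268; 8 arrays 0.24), and Tnfaip3, a brake on NF-kB, also by 0.17 (adjusted p = 0.0197), against a difference of 0.28 with 8 arrays (adjusted p = 0.202).

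Of 24 measured genes of cholesterol synthesis and uptake (29 listed), 1 rose, 0 fell and 23 did not pass, near the 4.52% called among all genes (median 0.01, against -0.03 over all genes). The gene that rose was Hsd17b7, a reductase of late sterol synthesis, which read 9.002 and 8.89 in DaxxA, 8.92 and 8.93 in DaxxB, and 8.67, 8.53, 8.61 and 8.78 in the vector arrays. All Daxx arrays lay above all vector arrays, and Hsd17b7 rose 1.22-fold (limma adjusted p = 0.0441), a call lost when any of vector replicates 1 and 3 or the 4 Daxx arrays was left out (adjusted p up to 0.137). On the 7 arrays 2 genes of this list rose and 1 fell, which is 3 of 24 against 12.8% of all genes. Beside Hsd17b7, Vldlr, a lipoprotein receptor, rose by 0.27 (adjusted p = 0.00313), against a difference of 0.41 with 8 arrays (adjusted p = 0.134). Mvk, the mevalonate kinase, fell by 0.15 (adjusted p = 0.0458), against a difference of -0.05 with 8 arrays (adjusted p = 0.818).

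Of 20 measured genes of intracellular transport and storage (22 listed), 1 rose, 2 fell and 17 did not pass, against 4.52% called among all genes (median -0.04, against -0.03 over all genes). Plin2, the coat protein of lipid droplets, read 10.24 and 10.23 in DaxxA, 10.38 and 10.36 in DaxxB, and 9.52, 9.14, 9.46 and 9.65 in the vector arrays. All Daxx arrays were higher, with vector replicate 2 the lowest, and Plin2 rose by 0.86 (SE 0.105, 1.81-fold, limma adjusted p = 0.00229), or by 0.76 without that array (adjusted p = 1.82e-05). Plin2 was also called in each Daxx group against the shared vector arrays, by 0.79 in DaxxA (adjusted p = 0.0303) and by 0.93 in DaxxB (adjusted p = 0.0147). Lipa, the lysosomal acid lipase that frees cholesterol from its esters, read 8.99 and 8.96 in DaxxA, 8.84 and 8.99 in DaxxB, and 9.52, 9.14, 9.64 and 9.68 in the vector arrays. All Daxx arrays were lower than all vector arrays, of which vector replicate 2 was the nearest to them, and without it Lipa fell by 0.67 (adjusted p = 2.41e-05) rather than by 0.55 (SE 0.115, adjusted p = 0.0319). The Lipa call with 8 arrays was lost when any of the other 7 arrays was left out (adjusted p up to 0.110).

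Cav1, the caveolar coat protein that binds cholesterol, fell 1.21-fold (adjusted p = 0.0259). It read 11.05 and 11.07 in DaxxA, 10.98 and 10.998 in DaxxB, and 11.30, 11.40, 11.27 and 11.24 in the vector arrays, without overlap. Its call was lost when any of vector replicates 1 and 3 or the 4 Daxx arrays was left out (adjusted p up to 0.0984). On the 7 arrays this list had 2 genes higher and 4 lower, which is 6 of 20 against 12.8% of all genes (median -0.09, against 0.02 over all genes). It added Tspo, a mitochondrial sterol-binding protein, which rose by 0.28 (adjusted p = 0.0255; 8 arrays 0.37). Also added were Osbpl2, an oxysterol-binding protein relative, which fell by 0.39 (adjusted p = 0.000342; 8 arrays -0.30), and Lamp2, a lysosomal membrane protein, which fell by 0.22 (adjusted p = 0.0182; 8 arrays -0.16).

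Of the 8 enzymes that make or clear oxysterols, the natural ligands of the receptors, 1 fell and 7 did not pass, against 4.52% called among all genes (median -0.09, against -0.03 over all genes; 0.02 and 0.02 on the 7 arrays). Only 5 of these 8 enzymes lay above the 95th percentile of the olfactory receptor genes, so for the dimmer ones the lack of a call says little. Ch25h, a hydroxylase that makes an oxysterol from cholesterol, read 6.48 and 6.56 in DaxxA, 6.66 and 6.35 in DaxxB, and 6.998, 6.86, 7.29 and 7.15 in the vector arrays. All Daxx arrays were lower, and Ch25h fell by 0.56 (SE 0.103, 1.48-fold, limma adjusted p = 0.0184), or by 0.63 without vector replicate 2 (adjusted p = 0.000561). That call was lost when any 1 of vector replicates 3 and 4, the DaxxA arrays and DaxxB replicate 2 was left out (adjusted p up to 0.0695). Cyp39a1, an oxysterol hydroxylase, joined it without vector replicate 2, for 2 of 8 against 12.8% of all genes (fell by 0.25, adjusted p = 0.0109; 8 arrays -0.17).

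**Figure D4:**
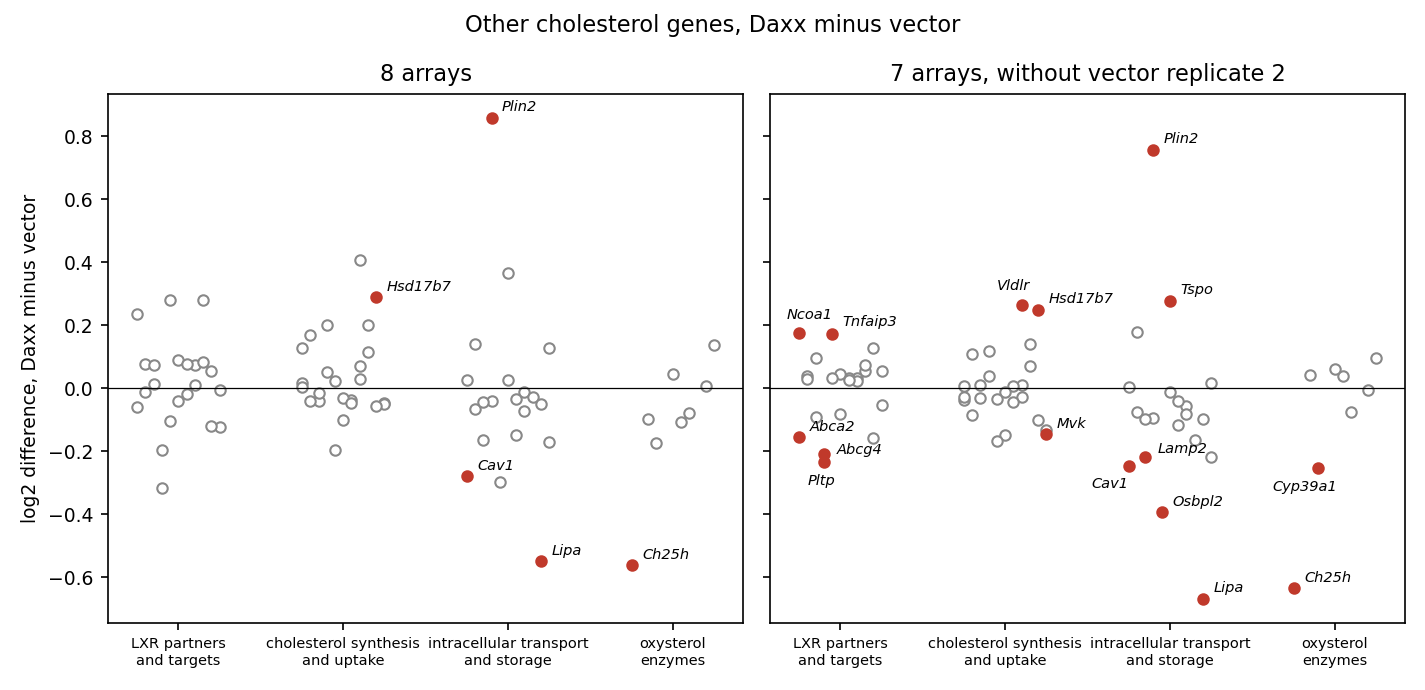
Log2 difference of Daxx minus vector (vertical axis) for each measured gene of 4 lists (horizontal axis), with all 8 arrays on the left and without vector replicate 2 on the right. Filled and named points have an adjusted p below 0.05; Plin2 is highest (0.86 and 0.76), and Lipa (-0.55 and -0.67) and Ch25h (-0.56 and -0.63) are lowest.

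The microRNA miR-33, encoded within Srebf2, has known targets among the listed genes, and was looked up after the values above were seen. Its part in these results was not tested. The mature RefSeq sequence of miR-33 (chr15:82198127-82198147, plus strand, GRCm38.p6) is shown because of these targets, with its seed, bases 2 to 8, in capitals.
mmu-miR-33-5p: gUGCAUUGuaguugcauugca
The Mir33 probe set read 3.97 to 4.12 in the Daxx arrays and 4.04 to 5.25 in the vector arrays, the high value being vector replicate 2, and 4.04 to 4.13 in the other 3. Its difference was -0.34 (limma adjusted p = 0.63), and -0.04 (adjusted p = 0.689) without that array. Apart from vector replicate 2, every array read below the 4.65 to 4.70 of the olfactory receptor medians, and a probe set for the gene need not report the mature RNA. Srebf2, the transcription factor of sterol synthesis, read 10.455 to 10.55 in the Daxx arrays and 10.26 to 10.47 in the vector arrays, a difference of 0.11 (interval -0.02 to 0.25, adjusted p = 0.442). With vector replicate 2 left out, Srebf2 read 10.41 to 10.47 in the vector arrays and the difference was 0.07 (adjusted p = 0.368).

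The fibroblast label was set against marker genes. Of 12 fibroblast markers, 11 lay above the 95th percentile of the olfactory receptor genes, against 4 of 12 macrophage, 4 of 8 adipocyte, 3 of 7 hepatocyte, 3 of 6 epithelial and 2 of 6 endothelial markers. The mean of the fibroblast list was 9.51 to 9.61 in the Daxx arrays and 9.70 to 9.76 in the vector arrays. Of the 12 markers 6 had a difference above 0 and 6 below, and the median was -0.11, or -0.0044 without vector replicate 2. By the test 1 rose, 3 fell and 8 did not pass, against 4.52% called among all genes. Pdgfra (1.77-fold), Pdgfrb (1.62-fold) and Twist2 (1.34-fold) fell and Col1a2 rose (1.24-fold). Without vector replicate 2, 1 fibroblast marker rose and 4 fell, against 12.8% called among all genes. The added marker was S100a4, which fell by 0.26 (limma adjusted p = 0.0479), against a difference of -0.35 with 8 arrays. The mean of the macrophage list, a cell type rich in Abca1, was 5.70 to 5.82 in the Daxx arrays and 5.71 to 6.05 in the vector arrays, or 5.71 to 5.75 without vector replicate 2, with 0 of 12 called. The mean of the adipocyte list was 6.11 to 6.22 in the Daxx arrays and 6.19 to 6.63 in the vector arrays (6.19 to 6.28 without vector replicate 2), and 1 of 8 was called, Pparg, a receptor of fat cell formation, which fell 1.27-fold (adjusted p = 0.0373). No gene of the hepatocyte, epithelial and endothelial lists was called by limma (0 of 7, 0 of 6 and 0 of 6). The counts called in these lists and in the macrophage and adipocyte lists were the same without vector replicate 2. The hepatocyte mean was 5.88 to 5.96 in the Daxx arrays and 5.91 to 6.23 in the vector arrays, the epithelial mean 6.18 to 6.35 in Daxx and 6.17 to 6.50 in vector arrays, and the endothelial mean 5.79 to 5.88 in Daxx and 5.77 to 6.07 in vector arrays. Each was highest on vector replicate 2. The part of these marker changes in the Abca1 result was not tested, and fewer cells of a kind cannot be told apart from less RNA per cell.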

How the data were processed

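Per the labels' protocols, total RNA of 8 samples of mouse embryonic fibroblasts was linearly amplified and end-labelled with biotin before hybridisation. The deposited values are log2 signals made by the authors with Affymetrix Expression Console and RMA, per the submitters' processing notes. The sources used here give no software version and no build. RMA shrinks differences of dim genes, and its quantile step removes a shift common to most genes. The number of arrays limits the precision.

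Of 35556 probe sets, 21789 had 1 gene symbol in the platform annotation, 1621 several and 12146 none listed. The probe set with the highest mean was kept per gene (19938 genes). limma 3.58.1 in R 4.3.3 (lmFit, eBayes) was fitted to 2 conditions for Daxx minus vector and to 3 groups for DaxxA and DaxxB, on all 8 arrays, with Benjamini-Hochberg adjustment over all genes. The fit was tested on simulated data with planted differences and independent noise of equal spread on every array. That setting holds no array like vector replicate 2, so it cannot show how the fit handles one. No column was left unused (0). Members, gene lists, tests and alternatives were chosen with earlier results of these data known. By rule, named genes were the members, Daxx, up to 3 genes per direction and list called with 8 arrays, and the 5 most like the member with the lowest adjusted p. List genes called only on 7 arrays, called markers, Mir33 and Srebf2 fall outside it and were named after their values were seen. Values without vector replicate 2 are given beside the counts of called members, list genes and markers. Counts of genes without overlap and of genes called at 2-fold or more are from all 8 arrays only. Other alternatives were array weights, centring, repeated quantile normalization, a trended robust prior, a filter on dim genes, the mean over probe sets and a replicate block. Promoter and microRNA sequences are from RefSeq (GRCm38.p6). List entries with no matched probe set were not analysed here.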

Additional observations from a re-analysis of the deposited data

Results flagged for a closer look

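Of 38 sets of 4 arrays examined (19 named genes, Daxx and vector arrays), 2 held a value far from the other 3, where chance gives about 1 in 20. Abcg1 read 7.30 in DaxxA replicate 1, while the other 3 Daxx arrays read 7.25. This is a difference of under 0.05 on the log2 scale, in a gene whose groups overlapped. Scarb1 read 9.28 in vector replicate 2, while the other vector arrays read 9.62 to 9.68, and that array had the narrower range described above. Without it the Scarb1 difference was 0.0080 rather than 0.10.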

How the results depend on the processing

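Abca1 kept its direction and its call for Daxx minus vector in all 15 alternatives (-1.05 to -0.99, adjusted p 1.78e-08 to 0.0112), as did Plin2 (0.76 to 0.97, adjusted p up to 0.0219). Leaving out 1 array gave 446 to 2558 called genes and 1 to 3 called members for Daxx minus vector, 1 to 2 members for DaxxA, 1 to 4 for DaxxB and 0 for DaxxA minus DaxxB. The Daxx probe set differed by 0.10 to 0.26 there (exact permutation p 0.0857 to 0.314). Deviations of same-numbered arrays correlated weakly and positively in each pair (r over genes 0.0238 to 0.162), but not above 0.1 in every pair. Differently numbered arrays reached 0.0803 (DaxxA replicate 1 with vector replicate 3). Within a group of 2 arrays the deviations mirror each other, so the pairs are not independent and these r cannot decide the question. The labels do not say what a number marks, and the arrays were not treated as paired. With the replicate block 162 genes were called, and 1, 0 and 0 members for Daxx, DaxxA and DaxxB minus vector. Abca1 was then at -0.92 for DaxxA (adjusted p = 0.127) and -1.07 for DaxxB (adjusted p = 0.112). Array weights gave 3231 genes and 3, 3 and 4 members for those comparisons, and 1 for DaxxA minus DaxxB (Nr1h3). Repeated quantile normalization gave 1428 genes and 2 members for Daxx minus vector. Centring gave 2 members for Daxx and 1 for DaxxB, and the trended robust prior gave 2 for Daxx. The cause of these shifts was not tested. Of 480 alternative values of single members, 430 kept sign and call, 24 turned sign, none of them past the threshold, 15 gained a call and 11 lost one. Leaving out 1 array, differences that turned sign ran from -0.0151 to 0.0327 (Abcg1, Daxx minus vector), -0.10 to 0.028 (Apoe, Daxx), -0.0038 to 0.0499 (Abcg1, DaxxA), -0.12 to 0.0453 (Mylip, DaxxA), -0.0264 to 0.0214 (Abcg1, DaxxB), -0.0899 to 0.0377 (Mylip, DaxxB), -0.10 to 0.0714 (Mylip, DaxxA minus DaxxB) and -0.0544 to 0.0685 (Scarb1, DaxxA minus DaxxB). With the replicate block Mylip gave 0.029, 0.0228 and 0.0353 for Daxx, DaxxA and DaxxB, and Apoe -0.0496 for DaxxB. With array weights Apoe gave 0.0088 for Daxx and Scarb1 -0.0017 for DaxxB. With centring Nr1h3 and Mylip gave 0.0025 and 0.0094 for DaxxA, and Mylip and Npc1 gave 0.0388 and 0.0418 for DaxxA minus DaxxB. With repeated quantile normalization Nr1h3 gave 0.0726 for DaxxA, Abcg1 -0.0032 for DaxxB and Scarb1 -0.0133 for DaxxA minus DaxxB.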
